A study of Mus musculus with 6 samples.

Results

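The genes described here are 32 interferon-stimulated genes, taken by symbol from a deposited table of 57180 genes. The set leaves out guanylate-binding proteins and chemokines. All 32 symbols were found, and 31 passed the filter on low counts. The exception, Ifi44l, had 0 counts in all 6 libraries, which allows at most 0.152 CPM (counts scaled to library size, the usual unit of RNA sequencing) in the shallowest library and covers counting error only.

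RNA was sequenced from bone marrow-derived macrophages of wild-type mice aged 6 to 8 weeks, whose strain the labels do not give. Marrow cells were grown for 7 days in M-CSF (20 ng/mL), the growth factor that turns them into macrophages. They then received IL-4 (20 ng/mL), or IL-4 together with CGRP, for 24 h, with 3 libraries in each group. IL-4 is the cytokine of alternative activation and CGRP a neuropeptide of sensory nerves. The wording of the labels leaves the CGRP concentration unclear, so it is not printed. Both groups carried IL-4 and no group with added interferon is analysed here, so the comparison asks only how adding CGRP to IL-4 moved these genes.

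Cells secrete type I interferons when sensors such as MDA5 detect foreign nucleic acid. The interferon receptor then activates JAK kinases and through them a complex with the DNA-binding subunit IRF9, which binds the interferon-stimulated response element in the promoters of target genes. The products of those genes degrade viral RNA, block its translation, trap virus particles and sense further nucleic acid. Macrophages keep many of these genes at a measurable level without infection, through low constant interferon signalling.

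RefSeq promoter windows (GRCm38.p6, 250 bases before each annotated start) existed for 23 of the 32 genes. The core of the response element was searched as GAAANNGAAA on both strands, and overlapping matches were kept. It was found in 12 of the 23 genes (52.2%), against 3.46% of all 27025 genes in the table. The 7 stretches below show the match in 2 genes that were lower with CGRP (Ifit3 and Rsad2) beside 4 genes that were not called. Each is 30 bases, read 5′ to 3′ on the gene's strand, with the match in capitals; a match on the opposite strand reads TTTCNNTTTC.
Ifit3, distal match (chr19:34583363-34583392, plus strand): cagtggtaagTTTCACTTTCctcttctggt
Ifit3, proximal match (chr19:34583397-34583426, plus strand): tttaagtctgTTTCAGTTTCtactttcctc
Ifit1, distal match (chr19:34640775-34640804, plus strand): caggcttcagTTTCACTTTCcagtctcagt
Rsad2 (chr12:26456553-26456582, minus strand): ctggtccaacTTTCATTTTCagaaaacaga
Oas3 (chr5:120777715-120777744, minus strand): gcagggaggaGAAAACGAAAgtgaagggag
Isg15, middle of 3 overlapping matches (chr4:156200871-156200900, minus strand): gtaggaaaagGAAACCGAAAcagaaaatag
Igtp (chr11:58199512-58199541, plus strand): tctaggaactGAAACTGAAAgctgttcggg

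Ifit3 and Ifit1 each held a pair of matches with the same letters, TTTCACTTTC and then TTTCAGTTTC, with the distal match starting 156 bases before the start in Ifit3 and 104 in Ifit1. Ifit2 held no match in either of its windows. Of the other genes of the set with a window, Ifit1bl1, Oas1a, Bst2, Ifi203, Ifi205 and Irgm1 also held the core. The gamma-activated site (TTCNNNGAA) was in 5 of 23 genes (21.7%; 8.13% of all genes). The form with a spacer of 1 more base (TTCNNNNGAA), the type STAT6 prefers, was also in 5 of 23 (21.7%; 6.76% of all genes). The letters of both are the same on either strand. A match describes the letters only and says nothing of binding.

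The interferon-stimulated genes were abundant in both groups and held 1.35% to 1.42% of all counts in each library. Levels between genes are compared as CPM per kilobase of the deposited gene length. Irf7, the transcription factor that amplifies interferon production, stood highest, at 1024 ± 17.2 with IL-4 and 970.5 ± 52.6 with IL-4+CGRP (SD, n = 3 in each group). It was followed with IL-4 by Bst2 at 776 ± 129, Ifit3 at 626 ± 11.2, Ifi204 at 459 ± 6.79 and Ifi27l2a at 428 ± 87.1 CPM per kilobase. The mean ± SD ranges of Irf7, Bst2, Ifit3 and Ifi204 stood apart from each other. From Ifi204 down through Ifi27l2a, Ifit2, Isg15 and Oas3 (364 ± 18.8) each range overlapped that of the next gene. Mx2 was lowest of the 31, at 12.7 ± 0.316 with IL-4 and 12.9 ± 0.284 with IL-4+CGRP. Next above it with IL-4 were Isg20 (37.7 ± 3.03), Irf9 (43.4 ± 2.93) and Oas2 (43.5 ± 1.02), whose ranges overlapped in that order.

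**Figure D1:**
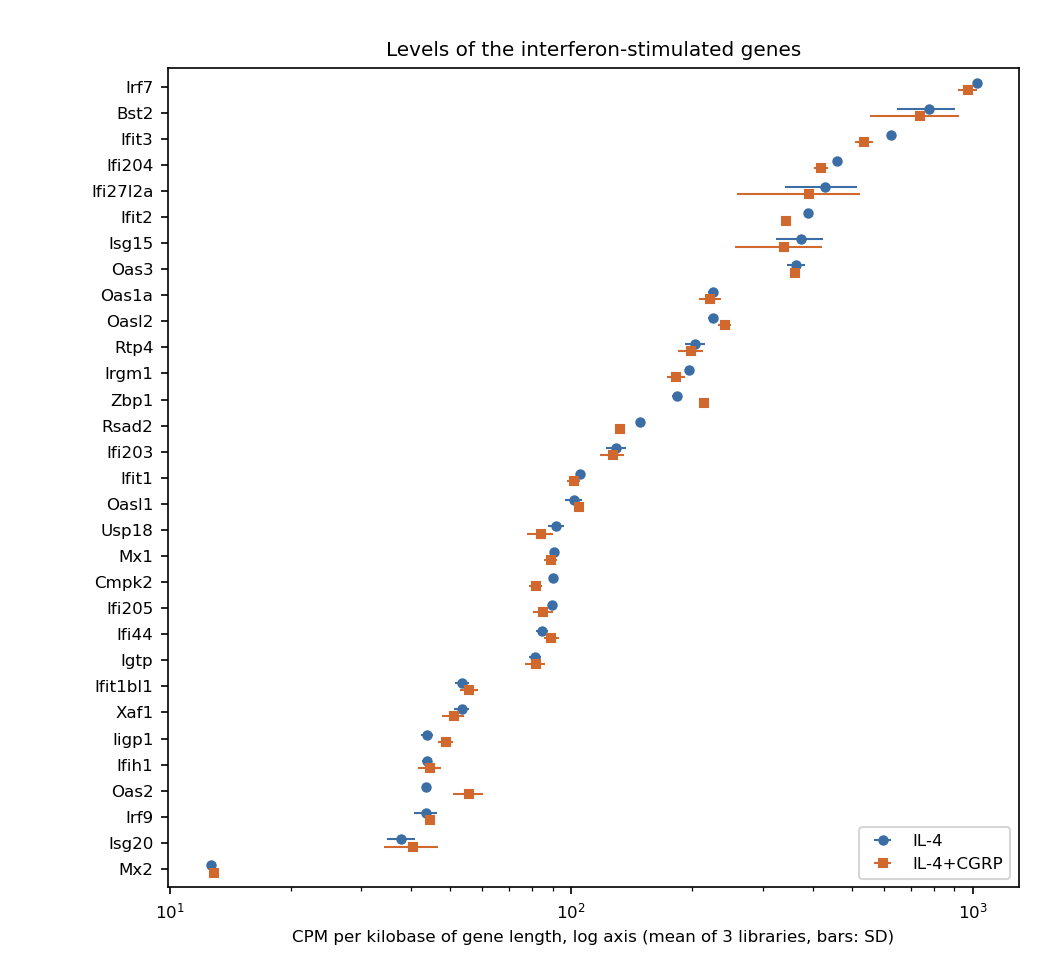
CPM per kilobase of gene length (log axis) of the 31 interferon-stimulated genes above the count filter, as the mean of 3 libraries with SD bars, for IL-4 (circles) and IL-4+CGRP (squares). The 2 groups lie close together for every gene, from Irf7 near 1024 to Mx2 near 12.7 with IL-4, and the widest bars belong to Bst2, Isg15 and Ifi27l2a.

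With CGRP, 2 of the 31 tested genes were higher, Oas2 and Zbp1, and 3 were lower, Ifit2, Ifit3 and Rsad2, by the edgeR quasi-likelihood test with p-values adjusted by Benjamini-Hochberg across the 13260 genes tested (adjusted p under 0.05). That is 16.1% of the set. Of all tested genes 3.85% were called (2.32% higher and 1.54% lower), and of the 5288 genes at least as abundant as the least abundant of the set, 6.01%. The median log2 fold change of the set was -0.03, against -0.004 for all tested genes. No gene of the set changed by as much as 1.5-fold: log2 fold changes ran from -0.22 to 0.35. Within the set, 19 genes had a negative and 12 a positive value. The CPM of the groups did not overlap for 9 of the 31 genes (29%), where 21% of all tested genes and 25.5% of those 5288 did not overlap. An unadjusted p under 0.05 was also reached by 9 of the 31, against 15.8% of all tested genes and 1112 of those 5288. Whether the replicates were separate cultures or mice is not stated in the labels, so the p-values reflect only how far these samples varied, and that variation may be technical. In bulk RNA, fewer cells of a type and less RNA per cell cannot be told apart.

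**Figure D2:**
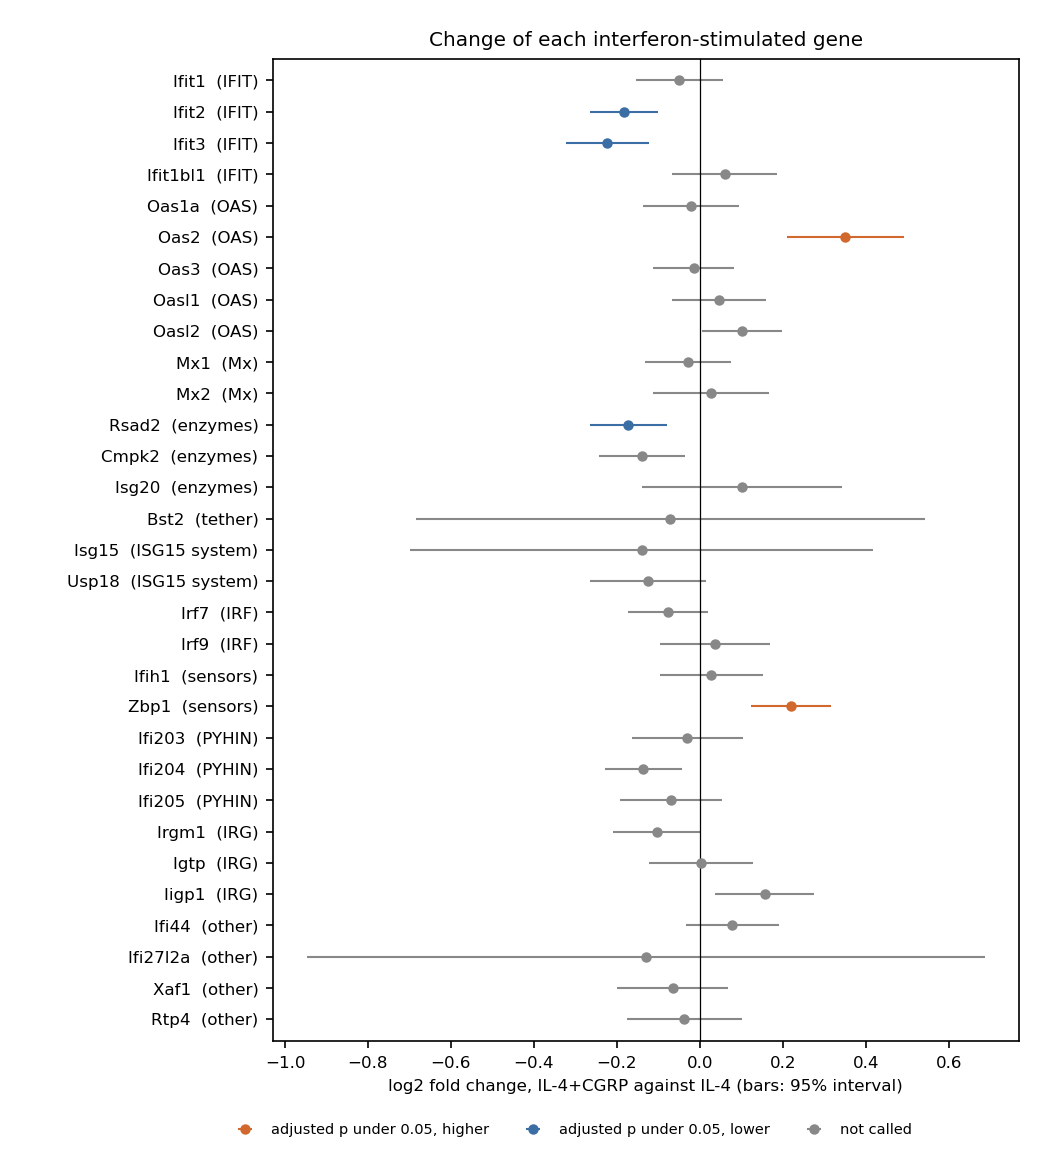
Log2 fold change of each of the 31 genes, IL-4+CGRP against IL-4, with its 95% interval (edgeR, not adjusted for the number of genes). Oas2 and Zbp1 lie to the right of 0 and Ifit2, Ifit3 and Rsad2 to the left, while Bst2, Isg15 and Ifi27l2a have the widest intervals.

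Among the IFIT proteins, which bind viral RNA and block its translation, Ifit2 (ENSMUSG00000045932) measured 1504, 1484 and 1474 CPM in IL-4 replicates 1 to 3, and 1336, 1322 and 1273 CPM in IL-4+CGRP replicates 1 to 3. Every IL-4+CGRP library lay below every IL-4 library. Ifit2 fell by 0.18 on the log2 scale (SE 0.04, n = 3 in each group; edgeR adjusted p = 0.019), a change of -11.9%.

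Ifit3 (ENSMUSG00000074896) measured 1115, 1079 and 1084 CPM with IL-4, and 932, 986 and 889 CPM with IL-4+CGRP. These groups did not overlap either, and Ifit3 fell 1.17-fold (log2 fold change -0.22, SE 0.05; edgeR adjusted p = 0.018). Its near-identical copy Ifit3b, outside the set, matched 97.4% of the Ifit3 transcript at 97.8% identity, so reads of the pair may have been divided between them. Ifit3b was called lower as well, at 160 ± 2.19 CPM with IL-4 and 135 ± 6.09 CPM with IL-4+CGRP (SD, n = 3; edgeR adjusted p = 0.024).

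The other 2 IFIT genes of the set did not pass. Ifit1 measured 279 ± 5.05 and 269 ± 10.3 CPM (SD, n = 3), with a 95% interval of -10.2% to 3.85% for its change. Ifit1bl1 measured 117 ± 4.39 and 122 ± 6.08 CPM (SD, n = 3), with an interval of -4.51% to 13.7%. A ratio of 2 genes within a library does not depend on scaling: the Ifit3 to Ifit1 count ratio was 4.08, 3.86 and 3.82 with IL-4 and 3.32, 3.70 and 3.41 with IL-4+CGRP. The ratio was lower in each IL-4+CGRP library, which shows unequal change and not which of the pair moved. The pairs for such ratios were chosen after seeing the data, so the ratios are a description. Paired genes can also differ in length, and the libraries differed by gene length, as described below. On chromosome 19 Ifit2, Ifit3 and Ifit1bl1 stand next to each other in RefSeq's gene order (GRCm38.p6), with Ifit1 on the same chromosome.

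Oas2 (ENSMUSG00000032690) is one of the synthetases that answer double-stranded RNA with 2-5A, the messenger that switches on RNase L. It had the largest change of the set, from 168, 173 and 176 CPM with IL-4 to 228, 198 and 234 CPM with IL-4+CGRP. IL-4+CGRP replicate 2 was the lowest of its group and still lay above all IL-4 libraries. Oas2 rose 1.28-fold (log2 fold change 0.35, SE 0.06; edgeR adjusted p = 0.0095).

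Oas3, the gene beside Oas2 in RefSeq's gene order, measured 1717 ± 88.9 and 1700 ± 39.5 CPM (SD, n = 3), with an interval of -7.47% to 5.90%. The Oas2 to Oas3 count ratio was 0.103, 0.0962 and 0.102 with IL-4 and 0.131, 0.120 and 0.137 with IL-4+CGRP, higher in each IL-4+CGRP library. Oas1a (425 ± 13.01 and 419 ± 26.1 CPM) and Oasl1, a feedback inhibitor of Irf7 translation (215 ± 10.6 and 222 ± 4.52 CPM; SD, n = 3), did not pass. Oas1a has a near-identical copy, Oas1g, over 98.7% of its transcript, so its level is uncertain. Oasl2 had groups that did not overlap, 703 ± 19.8 against 753 ± 27.0 CPM, but did not pass (SD, n = 3; edgeR adjusted p = 0.30). The gap was narrow, from 720.6 CPM in IL-4 replicate 2 to 722.5 CPM in IL-4+CGRP replicate 2.

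Rsad2 (ENSMUSG00000020641) encodes viperin, a radical enzyme that makes a chain-terminating nucleotide. It measured 573, 557 and 557 CPM with IL-4, and 505, 507.5 and 484 CPM with IL-4+CGRP. The groups did not overlap, and Rsad2 fell by 0.17 on the log2 scale (SE 0.04, 1.13-fold; edgeR adjusted p = 0.047). This p lay close to the threshold, and 11 of 17 alternative settings ended the call.

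Cmpk2, a nucleotide kinase whose product feeds viperin and whose gene is the neighbour of Rsad2, measured 288, 290 and 285 CPM with IL-4. It measured 271, 253 and 259 CPM with IL-4+CGRP, below all IL-4 libraries. Its log2 fold change of -0.14 (SE 0.05) did not pass (edgeR adjusted p = 0.15). The Rsad2 to Cmpk2 ratio was 1.99, 1.92 and 1.95 with IL-4 and 1.86, 2.01 and 1.87 with IL-4+CGRP, so the groups overlapped for this pair. Isg20, an exonuclease of single-stranded RNA, measured 41.0 ± 3.29 and 44.0 ± 6.75 CPM (SD, n = 3) and did not pass.

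Zbp1 (ENSMUSG00000027514) senses left-handed nucleic acid and can start necroptotic cell death. It measured 353, 376 and 365 CPM with IL-4, and 431, 422 and 421 CPM with IL-4+CGRP. The IL-4+CGRP libraries lay close together and above the IL-4 group. Zbp1 rose 1.16-fold (log2 fold change 0.22, SE 0.04; edgeR adjusted p = 0.017). The other sensor of the set, Ifih1 (MDA5), measured 239 ± 6.11 and 244 ± 16.3 CPM (SD, n = 3), with an interval of -6.42% to 11.1%. The Zbp1 to Ifih1 count ratio was 1.52, 1.56 and 1.498 with IL-4 and 1.69, 1.88 and 1.68 with IL-4+CGRP.

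**Figure D3:**
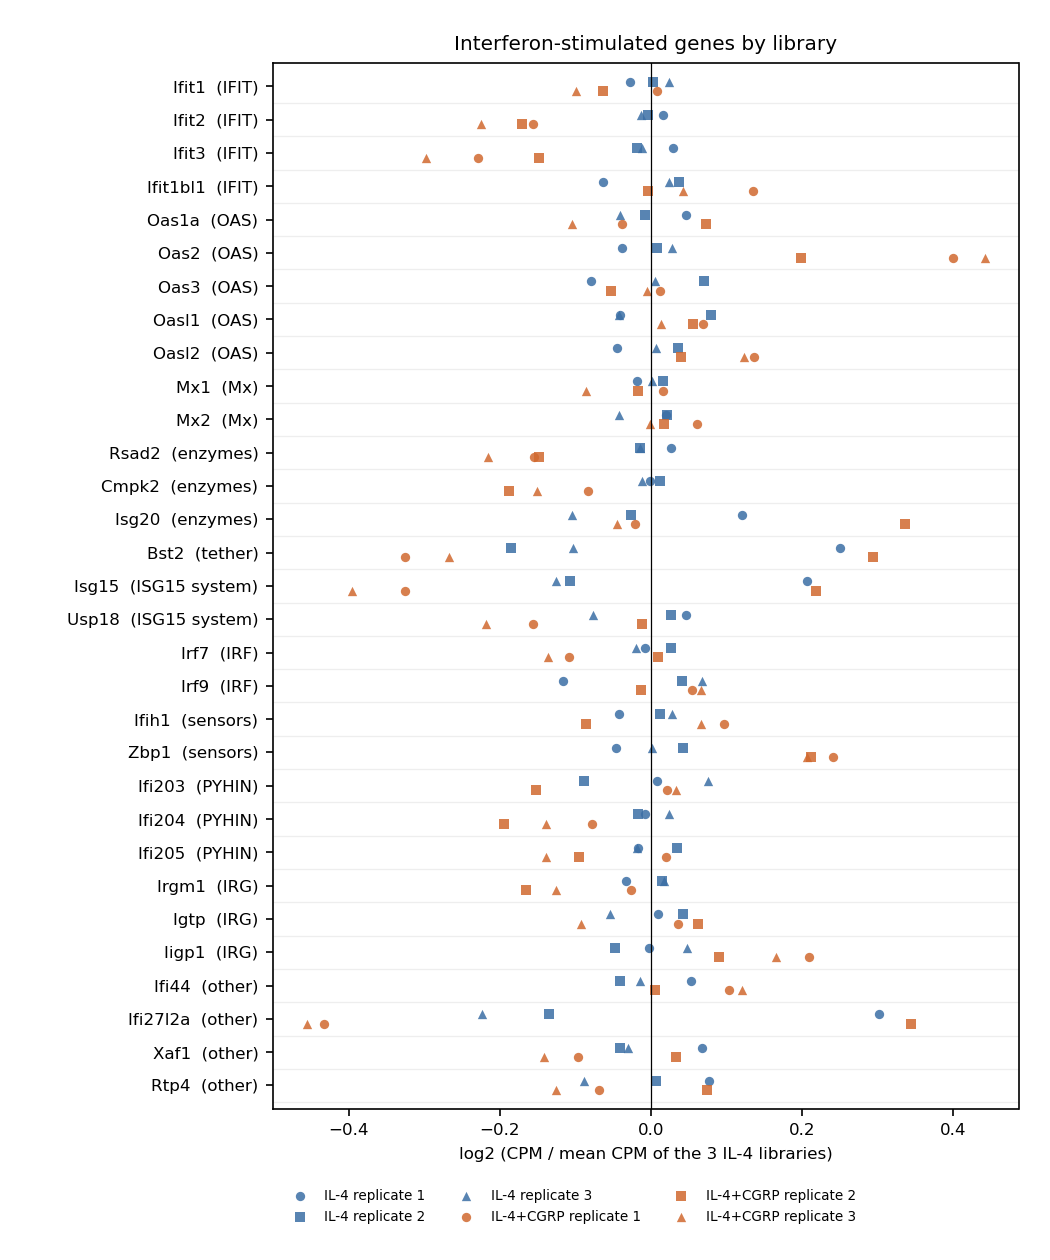
CPM of each of the 31 genes in each library, as log2 of its ratio to the mean of the 3 IL-4 libraries (blue, IL-4; orange, IL-4+CGRP; marker shape, replicate number). Oas2 and Zbp1 lie to the right and Ifit2, Ifit3 and Rsad2 to the left in all 3 IL-4+CGRP libraries, whereas for Bst2, Isg15 and Ifi27l2a IL-4 replicate 1 and IL-4+CGRP replicate 2 stand together on the right.

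The transcription factors did not pass. Irf7 measured 1950, 1999 and 1935 CPM with IL-4, and 1819, 1974 and 1785 CPM with IL-4+CGRP. IL-4+CGRP replicates 1 and 3 were below the IL-4 group and replicate 2 was inside it (log2 fold change -0.08, SE 0.04; edgeR adjusted p = 0.44). Irf9, which brings the interferon-activated complex to DNA, measured 129 ± 8.66 and 132 ± 3.89 CPM (SD, n = 3), with an interval of -6.48% to 12.4%. Without IL-4+CGRP replicate 2 Irf7 passed as lower (log2 fold change -0.12, edgeR adjusted p = 0.026), in a fit that called 13.8% of all tested genes. Irf7 was called in only 1 of the 6 fits that left out 1 library.

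In the ISG15 system, Isg15 encodes a ubiquitin-like protein and Usp18 the protease that removes it and also holds back the type I interferon receptor. Isg15 measured 303, 244 and 241 CPM with IL-4 and 209.5, 306 and 199.6 CPM with IL-4+CGRP, so that IL-4 replicate 1 and IL-4+CGRP replicate 2 were both high. Its interval was wide, from -38.3% to 33.6% (edgeR adjusted p = 0.80). Another gene, AC151275.1, matched 63.8% of the Isg15 transcript at 95.2% identity. Usp18 measured 162 ± 7.34 CPM with IL-4 and 149 ± 11.1 CPM with IL-4+CGRP (SD, n = 3; edgeR adjusted p = 0.37). It passed as lower in only 1 of the 6 fits that left out 1 library, the same fit without IL-4+CGRP replicate 2 (log2 fold change -0.19, edgeR adjusted p = 0.022).

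Bst2 (tetherin), which holds budding virus at the cell surface, measured 731, 541 and 572 CPM with IL-4 and 491, 754 and 511 CPM with IL-4+CGRP. The same pair of libraries was high, and the interval of -37.8% to 45.7% means that changes inside these bounds could not be told from none. The dynamin-like GTPases Mx1 (259 ± 3.16 and 254 ± 9.05 CPM) and Mx2 (30.7 ± 0.764 and 31.3 ± 0.688 CPM; SD, n = 3) had small within-group SDs of log2 CPM, 0.04 and 0.03. Their intervals were -8.73% to 5.40% and -7.60% to 12.3%. Mx1 matched 34.9% of the Mx2 transcript at 95.3% identity, so the level of Mx2, the lowest of the set, is uncertain too.

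The PYHIN proteins bind DNA in the nucleus and cytosol, and 0 of 3 listed here passed; 1 of the 3, Ifi204, had an unadjusted p under 0.05, and under DESeq2 and limma-voom 0 passed. Ifi204 measured 1049, 1043 and 1073 CPM with IL-4 and 999.6, 922 and 958 CPM with IL-4+CGRP, and these did not overlap (log2 fold change -0.14, SE 0.04; edgeR adjusted p = 0.12). Ifi203 (395 ± 22.4 and 387 ± 27.1 CPM) and Ifi205 (144 ± 3.08 and 137 ± 7.92 CPM; SD, n = 3) had groups that overlapped. Ifi211, a PYHIN gene outside the set that shares at least 95% identity with stretches of Ifi204 and Ifi205, was called lower (787 ± 8.01 CPM with IL-4 and 701 ± 23.5 CPM with IL-4+CGRP; SD, n = 3; edgeR adjusted p = 0.0495). That call ended under 12 of 17 alternative settings.

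The immunity-related GTPases attack the vacuoles of intracellular parasites and bacteria. Iigp1 measured 136, 132 and 141 CPM with IL-4 and 158, 145 and 153 CPM with IL-4+CGRP, the largest change among the genes that did not pass (log2 fold change 0.16, SE 0.05; edgeR adjusted p = 0.17). Every IL-4+CGRP library lay above the IL-4 group. Irgm1 (443 ± 8.57 and 412.5 ± 20.6 CPM) and Igtp (164 ± 5.59 and 165 ± 9.35 CPM; SD, n = 3) did not pass, and the interval of Igtp was -8.11% to 9.37%.

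Of the remaining genes, Ifi44 (246 ± 8.25 and 260 ± 10.99 CPM), the XIAP-binding gene Xaf1 (139 ± 5.77 and 132 ± 8.38 CPM) and Rtp4 (236 ± 13.6 and 230 ± 16.7 CPM; SD, n = 3) had groups that overlapped and did not pass. Ifi27l2a measured 244, 180.5 and 170 CPM with IL-4 and 147, 252 and 145 CPM with IL-4+CGRP, with the widest interval of the set (-48.1% to 60.9%). Among the 26 tested genes that were not called, 21 had a 95% interval within 20% of no change in either direction. The exceptions were Isg20, Bst2, Isg15, Ifi27l2a and Iigp1.

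The first 4 of those exceptions were also the 4 genes of the set whose SD of log2 CPM within groups was above 0.1, and together with Rtp4 they were the 5 shortest genes tested, under 1200 bases in the deposited table. The limit of 1200 bases was chosen after these values were seen. The within-group SD was 0.38 for Ifi27l2a (463 bases), 0.27 for Isg15 (703 bases), 0.29 for Bst2 (792 bases), 0.17 for Isg20 (1087 bases) and 0.09 for Rtp4 (1158 bases). The median was 0.06 over the set, 0.12 over all tested genes and 0.07 over the 5288 genes at least as abundant as the least abundant of the set. Across the 31 genes log2 length and this SD had a Pearson r of -0.80 and a Spearman rho of -0.47, as a description, since the genes share libraries.

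These 5 short genes stood high and low in the same libraries: the r between 2 of them over the 6 deviations from the group means ran from 0.85 to 0.995, with a median of 0.97, against a median of 0.25 among the 26 longer genes. Their median deviation was 0.22 (log2) in IL-4 replicate 1 and 0.39 in IL-4+CGRP replicate 2, and it lay between -0.17 and -0.10 in the other 4 libraries. The median over all tested genes under 1200 bases moved the same way in those libraries, with deviations of 0.13, 0.20 and between -0.11 and -0.06. Single short genes could go the other way. With each library's trend on gene length removed, an alternative added after seeing the data, the log2 fold changes of Isg15, Bst2 and Ifi27l2a became -0.04, 0.02 and 0.002, and none of the 3 passed in that fit (adjusted p = 0.80, 0.93 and 0.99). In the same fit Cmpk2 and Ifi204 passed as lower beside the 5 genes called before, and 6.56% of all tested genes were called. Without IL-4 replicate 1 and IL-4+CGRP replicate 2, all 3 passed as lower (log2 fold changes -0.24, -0.15 and -0.26; edgeR adjusted p = 3.7e-05, 0.0035 and 4.4e-05, with 2 libraries in each group; 16.9% of all tested genes were called there). The log2 fold change of Bst2 had a positive sign in 4 of the 17 alternative settings and that of Ifi27l2a in 3, with no call in them. The labels give a minimum RNA quality number of 6.5 for every library. What made the libraries differ by gene length was not tested.

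**Figure D4:**
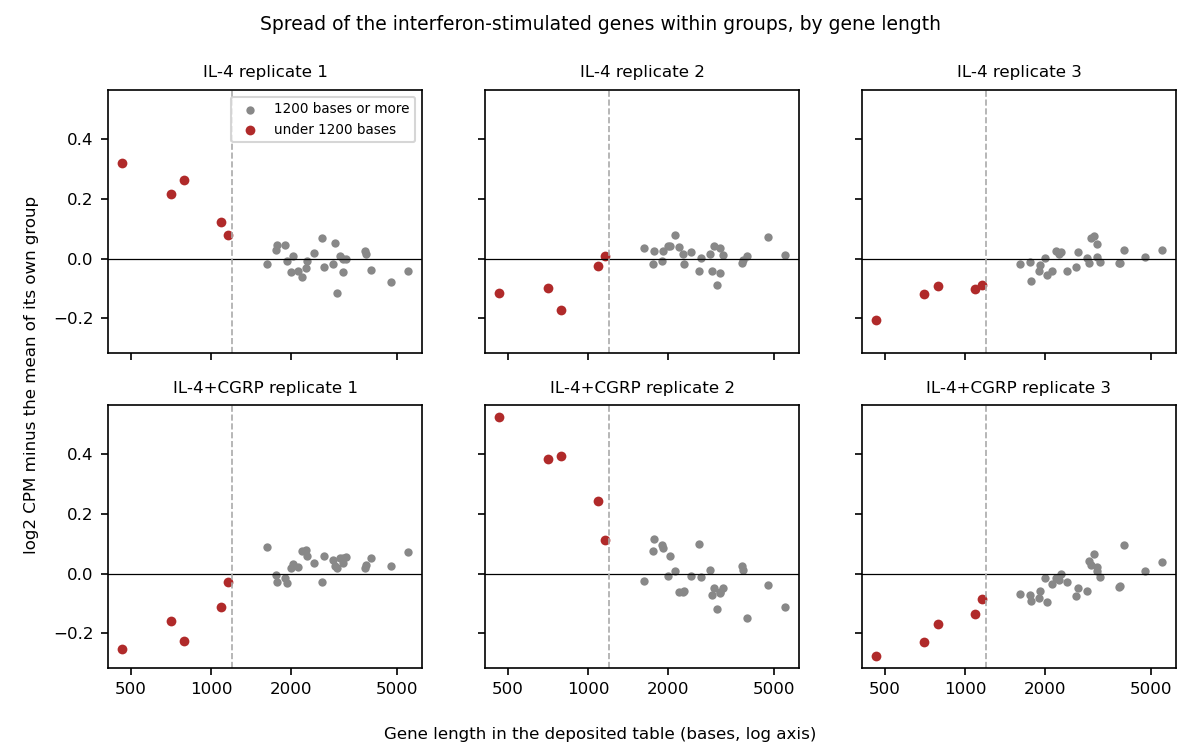
Deviation of log2 CPM from the mean of the library's own group against gene length (log axis) for the 31 genes, 1 panel per library; red points are the 5 genes under 1200 bases. The red points lie above 0 in IL-4 replicate 1 and IL-4+CGRP replicate 2, and below 0 in the other 4 libraries except for Rtp4 in IL-4 replicate 2.

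The 5 calls kept their direction in all 17 alternative settings but not their side of the threshold. In the 6 fits that left out 1 library, Oas2 passed in 2 (without IL-4+CGRP replicate 2 or 3), and Zbp1, Ifit2, Ifit3 and Rsad2 in 1 (without IL-4+CGRP replicate 2). Leaving out IL-4 replicate 1, 2 or 3, or replicate 1 of IL-4+CGRP, left 0 genes of the set past the threshold. Fewer genes were called in these fits over all tested genes as well (13450 to 13576 per fit): 140 to 175 higher and 80 to 101 lower. The reported fit called 307 higher and 204 lower of 13260. Among the other scalings and tests, Ifit2 lost its call with scaling by library totals alone and under DESeq2 (adjusted p = 0.052), and Rsad2 under those and 3 more settings. The replicate block also ended the calls of Ifit2, Ifit3, Rsad2 and Zbp1. Without IL-4+CGRP replicate 2, 4 passed as higher, with Iigp1 and Oasl2 added, and 5 as lower, with Irf7 and Usp18 added; in that fit 13.8% of all tested genes were called. The log2 fold change of Oas2 ran from 0.30 to 0.42 over the settings and that of Ifit3 from -0.26 to -0.19.

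**Figure D5:**
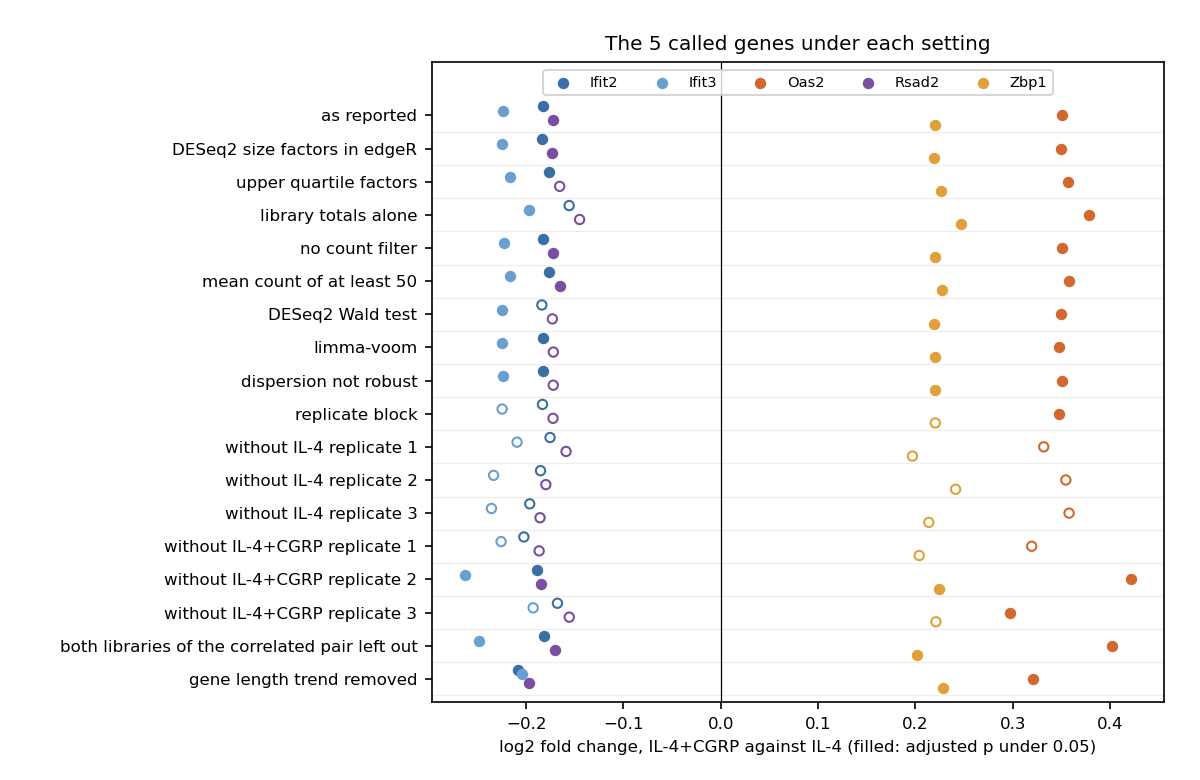
Log2 fold change of the 5 called genes under the reported fit and 17 alternatives; filled points have an adjusted p under 0.05. No point crosses 0, and the open points lie mostly in the rows that leave out 1 library, where Oas2 runs from 0.30 to 0.42.

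Of the other genes of the interferon pathway, in lists chosen by function, 1 was called higher and 2 lower among 89 tested, with log2 fold changes from -0.33 (Ifng) to 1.10 (Socs3). Of 10 interferon ligand genes, 8 were at 0 counts in every library; Ifnb1 had 0, 1 and 1 counts with IL-4 and 0, 2 and 0 with IL-4+CGRP. Ifng had 5 to 14 counts per library and did not pass (edgeR adjusted p = 0.80). None of the 5 tested receptor genes was called by edgeR (1 had an unadjusted p under 0.05): Ifnar1 measured 124 ± 5.50 and 128 ± 9.94 CPM, and Ifnar2 157 ± 5.93 and 153 ± 3.39 CPM (SD, n = 3).

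Among the 5 JAK-STAT genes 0 were called by edgeR, with 1 at an unadjusted p under 0.05. Stat2 measured 655 ± 31.9 and 717 ± 40.1 CPM, Jak1 302 ± 9.19 and 311 ± 23.7 CPM, and Tyk2 185 ± 3.27 and 187 ± 3.68 CPM (SD, n = 3). The regulatory factors Irf1 (312 ± 12.3 and 336 ± 5.05 CPM) and Irf3 (37.6 ± 1.69 and 36.3 ± 1.23 CPM; SD, n = 3) did not pass either, nor did any of the 6 listed (3 at an unadjusted p under 0.05). Of 6 negative regulators 1 rose 2.14-fold, Socs3, a feedback inhibitor of JAK signalling, which measured 3.28 ± 0.247 CPM with IL-4 against 7.02 ± 1.45 CPM with CGRP added (SD, n = 3; edgeR adjusted p = 0.0033). Socs1, the inhibitor that acts on interferon receptors, measured 64.6 ± 8.47 CPM without and 82.4 ± 15.6 CPM with CGRP (SD, n = 3; edgeR adjusted p = 0.38).

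Of 14 tested nucleic acid sensing genes 0 were called by edgeR (2 at an unadjusted p under 0.05), and their median log2 fold change was 0.06. Of 52 tested interferon-stimulated genes outside the set 0 rose and 2 fell, Ifit3b and Ifi211, with a median log2 fold change of -0.02. The share called over all these lists was 3.37%, beside 3.85% of all tested genes.

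The libraries held between 20088895 and 24060444 counts. The labelled cell type was matched by its markers: all 8 macrophage markers were tested and summed to between 14774 and 15243 CPM per library. Of these, Itgam was called higher and 0 lower. Adgre1, C1qa and Cd68 had negative log2 fold changes (-0.11, -0.16 and -0.10) and Csf1r a positive one (0.09). Each of them had an unadjusted edgeR p under 0.05 and was not called. Plasmacytoid dendritic cells, a main source of type I interferon, were marked by Siglech, which fell to 0.638 ± 0.290 CPM from 1.98 ± 0.495 CPM with IL-4 alone (n = 3; edgeR adjusted p = 0.022), and Ccr9, at 1.37 ± 0.183 CPM and 3.64 ± 0.501 CPM in the same order (SD, n = 3; edgeR adjusted p = 0.0026). Of 6 tested markers of these cells 2 fell and 0 rose, and the sum over the list was 643 to 824 CPM with IL-4 and 598 to 855 CPM with IL-4+CGRP, most of it Bst2. Tcf4, the second most abundant marker of the list, measured 86.2 ± 4.35 CPM with IL-4 and 99.7 ± 5.65 CPM with IL-4+CGRP; its groups did not overlap, with the higher values in IL-4+CGRP, and it did not pass (SD, n = 3; edgeR adjusted p = 0.096). Ly6d measured 4.44 ± 0.453 and 2.86 ± 0.930 CPM and did not pass either (SD, n = 3; edgeR adjusted p = 0.16). Markers of conventional dendritic cells summed to 169 to 175 CPM with IL-4 and 88.6 to 96.97 CPM with IL-4+CGRP. Most of this was Itgax, which fell from 149 ± 3.91 to 62.9 ± 5.35 CPM (SD, n = 3), and Ccr7 rose. The other tested markers of the list, Flt3, Zbtb46 and Clec9a, were scarce and not called. Their means were 0.654, 1.05 and 1.31 CPM with IL-4 and 0.737, 0.981 and 0.825 CPM with IL-4+CGRP. Xcr1 and Cd209a did not pass the count filter. For neutrophils, T or NK cells, B cells, mast cells and stromal cells 0 of 24 tested markers were called by edgeR (5 at an unadjusted p under 0.05). The part of dendritic cell markers in the values of the interferon-stimulated genes was not tested.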

How the data were processed

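Genes were measured by RNA sequencing of stranded mRNA libraries (per the labels' protocols), 3 with IL-4 and 3 with IL-4+CGRP. The submitters' processing notes name fastp, HISAT2 and StringTie, and build GRCm39. Their versions, the annotation, the counting step and the strand setting are not stated in the labels or headers. The authors deposited estimated counts per gene, not normalized as judged from the values: 23.3% to 26.6% of values above 0 per library were not whole (tolerance 1e-06), including values of 15 of the 32 genes. They were rounded. The deposited means of each group and 0 other columns were set aside; gene length is the deposited one.

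Genes were filtered by filterByExpr (13260 kept, 99.9% of counts), scaled by TMM (factors 0.985 to 1.016) and tested with edgeR 4.0.16 (quasi-likelihood, robust, no covariates) in R 4.3.3. SE is the log2 fold change over the square root of F, and 95% intervals use the moderated degrees of freedom. Deviations are log2 CPM (prior count 2) from group means. Alternatives were 3 scalings, 2 filters, DESeq2 1.42.0, limma-voom (limma 3.58.1), a dispersion not robust, a replicate block, each library left out, IL-4 replicate 1 and IL-4+CGRP replicate 2 both left out, and the length trend removed (lowess, span 0.3); the last, the 1200-base limit and the gene pairs of the count ratios were chosen after seeing the data. On simulated data (13100 genes), 32% of genes changed 1.3-fold and 96% changed 4-fold were recovered, and 0.132% of unchanged genes called. Copies were sought with BLAST 2.17.0 in GENCODE M21 transcripts (at least 95% identity).

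Members and lists were chosen with earlier results of these data known. Named are all 32 genes, pathway genes past the threshold and pathway genes listed whatever their result, of which 1 is not reported here; called genes, the 5 of highest level per kilobase and the 5 uncalled with the largest change are given by library.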

Additional observations from a re-analysis of the deposited data

How the results depend on the processing

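Of the settings that kept all libraries, scaling by library totals alone and DESeq2 each left 1 of the 32 genes called lower, and the length trend removed left 5. The replicate block left 1 higher (Oas2) and 0 lower. Whether same-numbered libraries belong together could not be told from correlations, since the libraries also differed by gene length. Same-numbered libraries had correlations of within-group deviations of -0.19, -0.18 and 0.13, while IL-4 replicate 1 and IL-4+CGRP replicate 2 had 0.29. Without those 2 libraries 5 genes of the set were higher and 10 lower, in a fit that called 16.9% of all tested genes. Leaving out 1 library gave 0 to 4 higher and 0 to 5 lower.

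Over all tested genes, no count filter gave 584 higher and 434 lower, the replicate block 176 and 86, and the pair left out 1066 and 1187; the length trend removed gave 429 lower. Leaving out 1 library gave 140 to 915 higher and 80 to 950 lower. Over the pathway lists, no count filter, DESeq2 and the length trend removed each gave 2 higher and the pair left out 15. Upper quartile factors, library totals alone, a mean count of at least 50, DESeq2, limma-voom and a dispersion not robust each gave 1 lower, the replicate block 0, the length trend removed 4 and the pair left out 14. Leaving out 1 library gave 1 to 11 higher and 0 to 9 lower. The highest counts of these ranges came without IL-4+CGRP replicate 2. The cause of these differences was not tested. None of the 5 called genes changed sign in the 17 alternatives. On simulated counts over genes of all levels 32% of 1.3-fold changes were recovered; the rate for these genes alone was not computed.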
